A study of Rattus norvegicus with 6 samples.

Results

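The genes described here encode the machinery that readies a secretory granule for release and fuses it with the plasma membrane. They are *Snap25*, *Stx1a*, *Vamp2*, *Cplx2*, *Unc13a*, *Cadps*, *Cadps2*, *Rims1* and *Rims2*. Their chromatin accessible sites (ACS) were taken as all regions of the deposited ATAC-seq table whose nearest gene carries one of these 9 symbols. In this assay the Tn5 transposase cuts DNA that is not packed away and leaves adapters at the cut, so open chromatin gathers integrations. The choice gave 75 of the 101603 distinct ACS, spread over 7 of the 9 genes. *Unc13a* was listed without a symbol, and its 5 ACS were found by gene identifier and are given beside the others, which makes 80 ACS in 8 genes. No region was listed for *Cadps2* by symbol or by identifier, and it was not analysed here.

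The islet cells came from Sprague-Dawley rats. The 3 Adult libraries (replicates 4, 5 and 6) were made from adult males about 3 months old, 1 library a rat, and the 3 P10 libraries (replicates 1, 2 and 3) from pups of both sexes killed 10 days after birth, as mixes of pups from 3 litters. No treatment was given. Per the study's methods, pup pancreases were digested by hand shaking, while in adult rats collagenase was injected into the pancreatic duct. Age, sex, digestion and the use of single rats or pooled pups therefore cannot be told apart. Whole islets were used without sorting, so fewer cells of a type and less open chromatin per cell cannot be told apart either. Accessibility was measured as the count of Tn5 integrations in each ACS, and a library held between 7916919 and 21168463 of them. Values are given in CPM, the usual depth-scaled count of an ACS relative to all ACS integrations of its library after TMM scaling, the log2 fold change is Adult over P10, and an ACS was called Up (more accessible in adults) or Down (more accessible in P10) at an edgeR p under 0.05 with an FDR under 0.2 over all ACS.

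Regulated exocytosis in islet cells uses the fusion proteins of nerve terminals. SNAP-25 and syntaxin 1A on the plasma membrane zip together with VAMP2 (synaptobrevin 2) on the granule, and this bundle pulls the membranes into contact. Complexin 2 clamps the assembling bundle and helps it respond to calcium. Munc13-1, the product of *Unc13a*, opens syntaxin 1A, CAPS1 (*Cadps*) and CAPS2 (*Cadps2*) prime dense-core granules such as those holding insulin and glucagon, and RIM1 (*Rims1*) and RIM2 (*Rims2*) bind Rab3 and hold granules, Munc13 and calcium channels together at release sites.

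The promoters of these genes are shown because 11 of the 80 ACS lie within 1 kb of a gene start. Of these 1 was called, and over all ACS of that class 10.6% were. The RefSeq table of the GRCr8 build held a promoter for 7 of the 9 genes, all but *Snap25* and *Rims2*. The 250 bases before the start are printed for 4 of them, 1 for each of the granule SNARE, the plasma membrane SNARE and both kinds of priming factor. Capitals mark matches, on either strand, to the site blocks TTCAGCACC and GGACAG of the neuronal gene repressor REST, the E-box CAGGTG of Scratch and Snail repressors, the cyclic AMP response element TGACGTCA and its shorter core TGACG (which lies within it), and the GC box GGGCGG.
Vamp2 (chr10:54292539-54292788, plus strand): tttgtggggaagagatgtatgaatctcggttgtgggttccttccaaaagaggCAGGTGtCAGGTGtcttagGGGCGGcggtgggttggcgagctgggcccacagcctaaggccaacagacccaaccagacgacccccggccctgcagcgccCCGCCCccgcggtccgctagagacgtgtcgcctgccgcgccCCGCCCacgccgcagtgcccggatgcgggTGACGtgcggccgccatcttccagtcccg
Stx1a (chr12:27306472-27306721, minus strand): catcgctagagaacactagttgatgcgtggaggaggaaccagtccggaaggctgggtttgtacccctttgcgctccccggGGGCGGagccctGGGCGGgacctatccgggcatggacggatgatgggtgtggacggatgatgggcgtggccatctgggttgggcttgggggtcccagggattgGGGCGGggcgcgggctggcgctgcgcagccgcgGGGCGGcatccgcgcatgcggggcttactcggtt
Unc13a (chr16:18415787-18416036, minus strand): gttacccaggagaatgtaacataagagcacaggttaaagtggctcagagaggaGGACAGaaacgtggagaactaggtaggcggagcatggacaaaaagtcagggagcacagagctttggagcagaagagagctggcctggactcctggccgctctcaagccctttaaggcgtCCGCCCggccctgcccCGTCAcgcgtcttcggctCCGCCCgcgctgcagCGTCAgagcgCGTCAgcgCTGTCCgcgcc
Cadps (chr15:14720476-14720725, plus strand): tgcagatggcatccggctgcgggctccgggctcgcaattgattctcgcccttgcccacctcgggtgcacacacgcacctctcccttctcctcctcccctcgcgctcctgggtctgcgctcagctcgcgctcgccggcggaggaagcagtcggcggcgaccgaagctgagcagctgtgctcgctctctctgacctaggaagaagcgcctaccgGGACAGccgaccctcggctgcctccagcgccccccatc

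Over windows of 300 bases, which also take in 50 bases after the start, GGGCGG was present in 33.1% of the 33469 promoters of the table and in 6 of the 7 member promoters, all but that of *Cadps*. *Stx1a* had 4 copies of it, all before the start, and *Vamp2* had 3. CAGGTG was found in *Vamp2*, where 2 copies stand next to each other, and in *Cadps2*, against 18.8% of all promoters. TGACG was present in *Vamp2*, *Cplx2* and *Unc13a* (21.2% of all promoters), and the full TGACGTCA in none of the 7 (1.83%). GGACAG was present in *Unc13a*, *Cadps* and *Cadps2* (21.7%). TTCAGCACC was rare, at 0.356% of all promoters, and was found only in that of *Unc13a* among the 7. There it stands with GGACAG across the start, both in reverse orientation and 8 bases apart, from position -11 to position 12 counted from the first transcribed base as 1. This run of 23 bases is printed with the site blocks in capitals.
Unc13a site blocks: CTGTCCgcgcccccGGTGCTGAA
Both site blocks in this order within 20 bases of each other were found in 13 promoters of the table, or 0.0388%. The member promoters had GC contents between 54.0% and 75.7%, above the median of 51.7% over all promoters. These matches describe the letters only, and no binding was measured here.

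Before the results of single genes, 3 facts of the libraries bear on them. Replicate 1 of P10 differed from the other P10 libraries at some loci. Over all ACS its log2 CPM had an r of 0.945 with P10 replicate 2 and 0.942 with replicate 3. These 2 had 0.956 with each other, and the adult pairs 0.921 to 0.929. Over all genes its summed CPM was at the median 1.01 times their mean. The CPM summed over promoter ACS of *Ins1*, *Ins2*, *Pdx1* and the other beta cell markers was 339 in P10 replicate 1, 208 and 226 in P10 replicates 2 and 3, and 163 to 225 in adults. Without this library the member ACS called Up rose from 11 to 19, while those called Down went from 7 to 6, against 12.8% Up and 6.78% Down of all ACS in the same fit. The second fact is cell composition. Summed over all their ACS, several marker lists of other cell types were higher in adults without overlap. Endothelial markers had 373 to 454 CPM in adults and 339 to 353 CPM in P10 (9 of 53 ACS Up and 1 Down), duct markers 277 to 313 CPM against 247 to 267 CPM (4 Up and 5 Down of 43), acinar markers 316 to 356 CPM against 304 to 310 CPM (3 Up and 4 Down of 47) and mesenchyme markers 286 to 301 CPM against 260 to 281 CPM (3 Up and 4 Down of 38). Of the 47 acinar ACS, 40 were listed for *Ptf1a*, with 3 Up and 1 Down. *Prss1* had 2 Down of 2, *Rbpjl* 1 Down of 3 and *Cpa1* 0 called of 2. The acinar sum therefore largely describes the surroundings of 1 gene. Over promoter ACS alone, 3 marker lists were instead lower in adults without overlap. Duct markers had 25.7 to 28.4 CPM against 36.9 to 43.9 CPM, acinar markers 4.34 to 6.52 CPM against 7.08 to 8.49 CPM and delta markers 11.6 to 13.7 CPM against 17.6 to 25.6 CPM. Promoter sums of endothelial and mesenchyme markers overlapped. Over all their ACS, markers of cycling cells overlapped, at 279 to 323 CPM against 299 to 323 CPM (3 Up and 2 Down of 39). Delta markers had 1 ACS Up and 3 Down of 10, neuronal markers 5 Up and 4 Down of 52, and the immune and Schwann cell markers had no promoter ACS in the table. Over their 3 ACS, Schwann cell markers were lower in adults without overlap, at 7.61 to 9.06 CPM against 10.1 to 12.3 CPM. The part of cell composition in the results was not tested. The third is scaling. With the total number of sequenced reads as library size, the median log2 fold change of all ACS moved from -0.01 to -0.84, 60.7% of all ACS were called Down and 1.05% Up, and the members had 44 Down and 0 Up, so every direction below is relative to the other ACS of the same library. The age of each column of counts was read from its name alone, an A or a P with the replicate number of the labels, and every direction rests on that reading, which was not checked in another way.

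Of the 75 ACS, 11 were Up and 7 were Down. Over all ACS, 12.3% were called Up and 6.63% Down, so the member shares of 14.7% and 9.33% lay near the background. The median log2 fold change was -0.01 in the members and -0.01 over all ACS. DESeq2 called 11 Up and 6 Down, and limma voom 11 and 7. The groups did not overlap in 21 of the 75 ACS and in 24.7% of all ACS. Within each of the 7 genes the called ACS had the same direction, but only *Snap25*, *Cadps* and *Rims2* had more than 1 call. Of the other exocytosis genes listed below, 16 had at least 2 called ACS, and 7 had calls in both directions. How often calls of a gene share a direction was not counted over all genes. All 6 calls in *Snap25* were Down, all 6 in *Cadps* and all 4 in *Rims2* were Up, *Cplx2* had 1 Up, *Rims1* had 1 Down, and *Stx1a* and *Vamp2* had none. In 15 of the 18 called ACS every adult library lay on one side of every P10 library, and 10 of the 18 stayed called in each of the 6 fits that left out 1 library. A call itself favours ACS whose groups lie apart, and these shares were not counted among all called ACS. Neither count therefore adds support to the member calls.

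**Figure D1:**
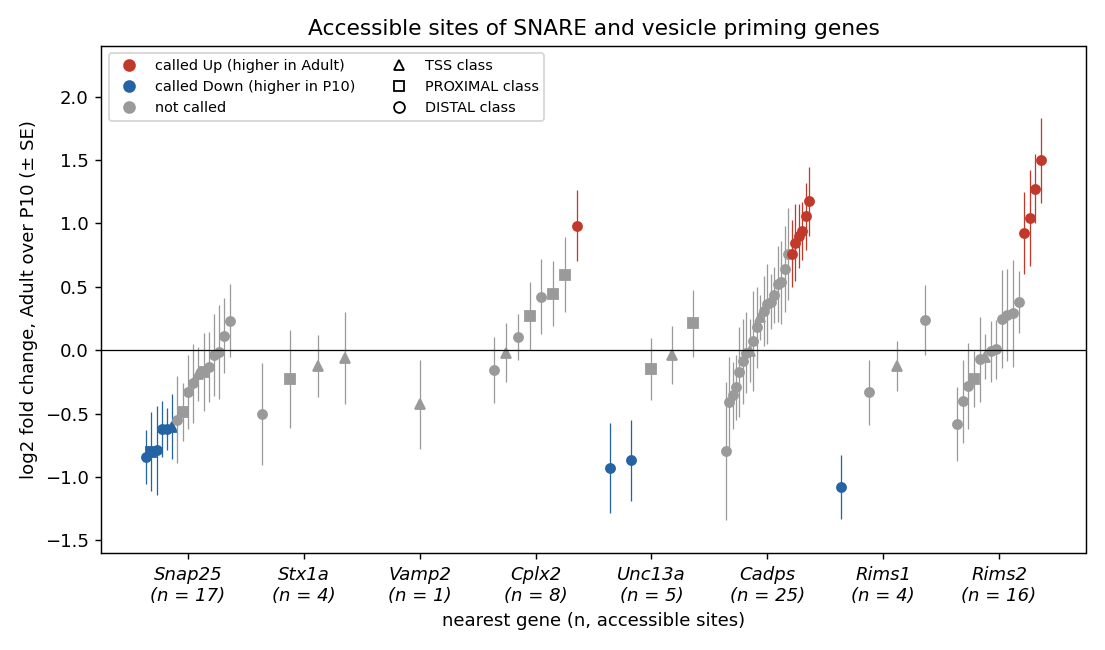
Log2 fold change (Adult over P10, with SE bars) of each ACS, grouped by nearest gene along the x axis. Red marks ACS called Up, blue those called Down and grey those not called, and the symbols give the distance class. The called ACS of *Snap25* (6), *Unc13a* (2) and *Rims1* (1) lie below zero, and those of *Cadps* (6), *Rims2* (4) and *Cplx2* (1) above it.

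The table divides ACS by distance from the gene start, and in the 8 genes the TSS class reached from 144 to 747 bp, the PROXIMAL class from 1096 to 7679 bp and the DISTAL class from 12195 to 361427 bp. All 11 Up ACS were DISTAL, among 57 DISTAL ACS that also held 5 Down (background 13.8% Up and 6.45% Down). The 8 PROXIMAL ACS had 0 Up and 1 Down (background 11.2% and 6.71%), with 0 having a positive change and 2 a negative one at an unadjusted edgeR p under 0.05. DESeq2 called 0 Up and 1 Down among them and limma voom 0 Up and 2 Down. The 10 TSS-class ACS had 0 Up and 1 Down (background 2.73% and 7.87%), the same counts with DESeq2, limma voom and an unadjusted p. By position, 7 of the 41 ACS inside a gene and outside the TSS class were Up and 4 were Down, and 4 of the 22 upstream ones were Up and 2 Down. The shares over all ACS in these positions were not counted, so these counts show nothing particular to the members. The table gives inside, upstream or downstream of the gene, and does not divide inside into exon, intron and UTR. The called Up ACS lay a median of 126 kb from the gene start and the called Down ones 37.4 kb. These medians follow the genes that hold the calls. *Snap25* held 6 of the 7 Down ACS and had none beyond 92.5 kb, and the Down ACS of *Rims1* lay 312 kb away. Most Up ACS were in *Cadps* and *Rims2*, whose ACS reached 266 and 337 kb.

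*Snap25*, the plasma membrane SNARE that gives helices to the fusion bundle, had 17 ACS on Rn5 chromosome 3, of which 6 were Down and 0 Up, and 15 of the 17 had a negative log2 fold change. DESeq2 called 5 Down and limma voom 6, with 0 Up in both, and no ACS was higher in adults at an unadjusted edgeR p under 0.05. Its most accessible ACS lay 36.2 kb upstream of the start (chr3:136145803-136146427) and had 28.9, 24.6 and 31.8 CPM in Adult replicates 4, 5 and 6, against 44.7, 40.0 and 46.4 CPM in P10 replicates 1, 2 and 3. Every P10 library lay above every adult one, and the log2 fold change was -0.62 ± 0.17 (SE, edgeR FDR 0.0175). A neighbour 37.4 kb upstream (chr3:136144620-136145207) had 8.40, 9.15 and 11.9 CPM in adults and 15.2, 14.0 and 15.8 CPM in P10, again without overlap. The lowest FDR of the gene was that of an ACS 52.3 kb inside (chr3:136234342-136235307), with 10.7, 10.7 and 8.25 CPM in adults and 18.5, 17.8 and 17.1 CPM in P10 (-0.84 ± 0.21, edgeR FDR 0.0101). It and the ACS 36.2 kb upstream were called in each of the 6 fits without 1 library.

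The start of *Snap25* was covered by 2 TSS-class ACS. The one over the start itself (chr3:136181907-136182326) had 11.6, 10.7 and 12.2 CPM in adults and 13.7, 12.3 and 13.4 CPM in P10. Its groups did not overlap, but the log2 fold change of -0.19 ± 0.21 was not called (edgeR FDR 0.685). The second, 610 bp inside the gene (chr3:136182661-136182988), had 6.24, 6.43 and 3.996 CPM in adults and 8.69, 9.34 and 7.51 CPM in P10, and was the single called TSS-class ACS of all members (-0.60 ± 0.26, edgeR FDR 0.168). This call was lost without Adult replicate 6 (-0.43), P10 replicate 1 (-0.60) or P10 replicate 2 (-0.55). An ACS 7.68 kb inside (chr3:136189730-136190077), with 3.07, 3.02 and 2.06 CPM against 4.88, 5.49 and 4.02 CPM, was Down (-0.80 ± 0.31, edgeR FDR 0.116) and lost its call without Adult replicate 6 (-0.65) or P10 replicate 2 (-0.72). The ACS 37.4 kb upstream (-0.62 ± 0.22, edgeR FDR 0.0790) lost its call without Adult replicate 4 (-0.52) or P10 replicate 3 (-0.59). A shallow ACS 44.2 kb inside (-0.79 ± 0.35, edgeR FDR 0.183) was not called by DESeq2 or limma voom, and of the 6 fits without 1 library it was called in the one without Adult replicate 4 (-0.96), with values from -0.90 to -0.70 in the others. The 11 ACS that were not called ranged from -0.55 to 0.23.

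**Figure D2:**
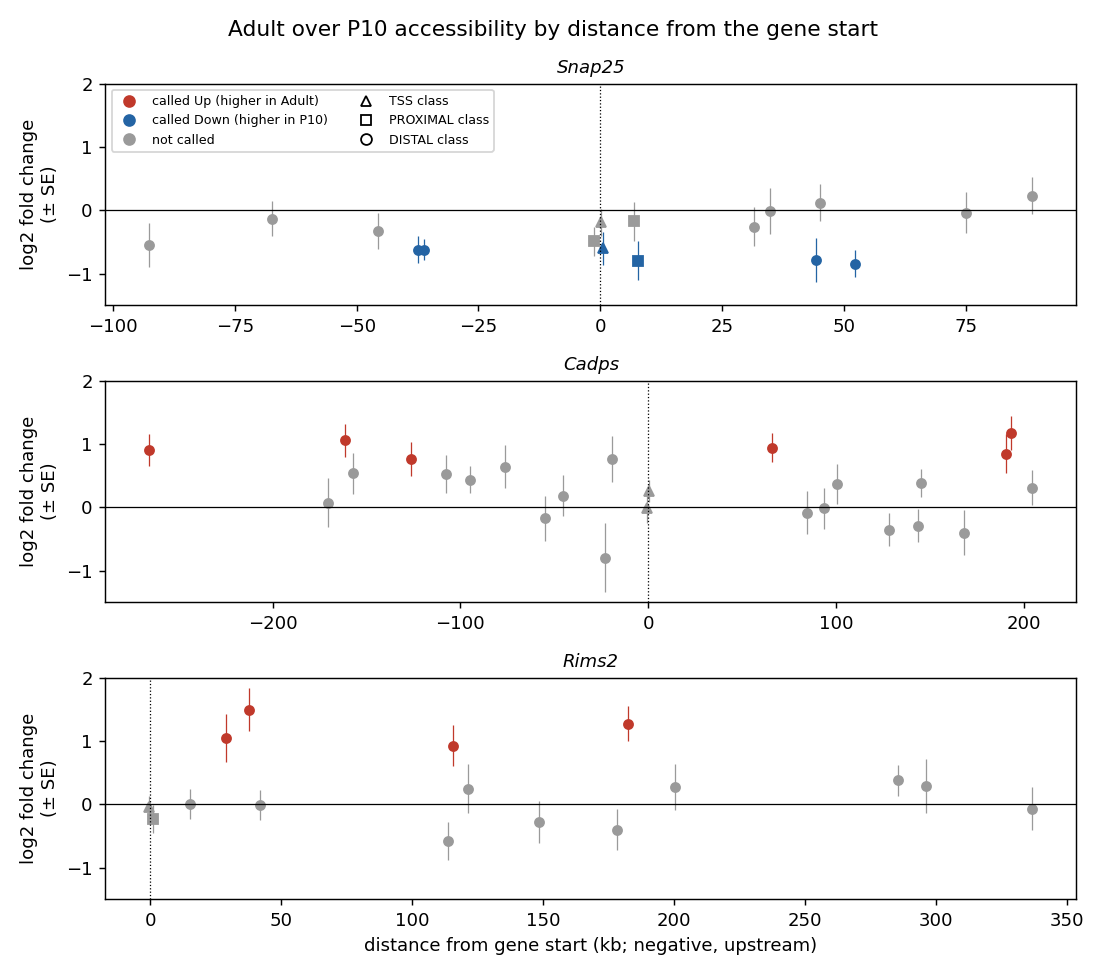
Log2 fold change (y axis, with SE bars) of each ACS against its distance from the gene start in kb (x axis, negative upstream) for *Snap25*, *Cadps* and *Rims2*. Colours give the call and symbols the distance class. The Down ACS of *Snap25* lie within 52.3 kb of the start on both sides, and the Up ACS of *Cadps* and *Rims2* lie between 28.9 and 266 kb from it.

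*Stx1a* encodes syntaxin 1A, the partner of SNAP-25 on the plasma membrane. None of its 4 ACS on chromosome 12 was called, by edgeR, DESeq2 or limma voom, and none had an unadjusted edgeR p under 0.05. The ACS over the start (chr12:26709970-26710635) held most of its signal, with 17.4, 15.8 and 7.99 CPM in adults and 14.8, 18.1 and 12.5 CPM in P10. Adult replicate 6 was the lowest library and the groups overlapped (-0.13 ± 0.24, edgeR FDR 0.837). A second TSS-class ACS 747 bp inside (chr12:26709525-26709781) had 1.72, 2.92 and 2.32 CPM in adults and 3.11, 2.14 and 1.96 CPM in P10. All 4 estimates were negative, from -0.50 to -0.06 with a median SE of 0.37. The ACS over the start had a mean count of 204. The others, with mean counts of 32.2 to 45.8, were shallow and bound the change only loosely.

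*Vamp2*, the SNARE of the granule, had a single ACS, which lies over its start (chr10:55418449-55418768). It was shallow, at 51.7 integrations per library on average, with 4.97, 1.75 and 2.19 CPM in adults and 4.28, 4.49 and 3.44 CPM in P10. Adult replicate 4 was the highest of the 6 libraries and the other adults were the lowest, and the log2 fold change of -0.43 ± 0.35 was not called (edgeR FDR 0.542). Without Adult replicate 4 it was -1.05 and was called Down.

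*Cplx2*, which encodes complexin 2, had 8 ACS on chromosome 17, of which 1 was Up and 0 Down. No ACS was lower in adults at an unadjusted edgeR p under 0.05, and DESeq2 and limma voom also gave 1 Up and 0 Down. The Up ACS lay 54.0 kb upstream (chr17:12946068-12946456), with 8.86, 5.94 and 6.83 CPM in adults and 4.51, 3.00 and 3.38 CPM in P10, without overlap (0.98 ± 0.28, edgeR FDR 0.0253). It was called in each of the 6 fits without 1 library. The most accessible ACS, 59.0 kb upstream (chr17:12951139-12952358), is farther out and had 29.6, 23.9 and 27.5 CPM against 25.8, 27.4 and 22.2 CPM, with overlap and a log2 fold change of 0.10 ± 0.18. The TSS-class ACS (chr17:12891608-12892103) had 18.3, 11.2 and 10.3 CPM in adults and 15.6, 12.1 and 12.8 CPM in P10 (-0.02 ± 0.23). Without P10 replicate 1, 5 of the 8 ACS were Up.

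*Unc13a*, whose product Munc13-1 opens syntaxin for assembly, had 5 ACS on chromosome 16, all inside the gene, of which 2 were Down and 0 Up. DESeq2 and limma voom gave the same counts, and no ACS was higher in adults at an unadjusted edgeR p under 0.05. The most accessible ACS lay over the start (chr16:19963979-19964425), with 20.8, 16.1 and 11.6 CPM in adults and 21.7, 13.4 and 14.9 CPM in P10, and the groups overlapped (-0.04 ± 0.23, edgeR FDR 0.954). The printed site blocks of REST lie at the RefSeq start on the other build, and their place in this ACS was not checked. An ACS 12.2 kb inside (chr16:19952018-19952461) had 3.34, 5.45 and 3.87 CPM in adults and 12.4, 5.14 and 5.45 CPM in P10. Only P10 replicate 1 was clearly higher, and the call (-0.87 ± 0.32, edgeR FDR 0.0962) was lost without that library (-0.33) and without Adult replicate 4 (-0.72). The other, 22.0 kb inside (chr16:19942241-19942549), had 1.45, 2.14 and 1.42 CPM against 3.63, 2.92 and 3.01 CPM. Its groups did not overlap (-0.93 ± 0.36, edgeR FDR 0.111), but it was called in only 3 of the 6 fits, being lost without Adult replicate 4 (-0.82), Adult replicate 6 (-0.84) or P10 replicate 1 (-0.83). Without P10 replicate 1 the gene had 1 ACS Up and 0 Down.

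*Cadps*, which encodes the dense-core granule priming factor CAPS1, had the most ACS of the members, with 25 on chromosome 15. Of these 6 were Up and 0 Down, and 17 had a positive log2 fold change. DESeq2 and limma voom gave the same counts, and no ACS was lower in adults at an unadjusted edgeR p under 0.05. The smallest FDR was that of an ACS 193 kb inside the gene (chr15:19471848-19472311), with 15.4, 8.08 and 12.8 CPM in adults and 7.16, 4.78 and 4.02 CPM in P10, without overlap (1.17 ± 0.27, edgeR FDR 0.00549). An ACS 66.1 kb inside (chr15:19344725-19345034) had 19.97, 13.9 and 13.9 CPM in adults and 9.58, 8.13 and 7.24 CPM in P10 (0.94 ± 0.23, edgeR FDR 0.00773). At both sites all adult values exceeded all P10 values, and P10 replicate 1 was the P10 library nearest to the adults.

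Upstream of *Cadps*, 3 ACS were Up. The one 161 kb away (chr15:19117161-19117484) had 11.4, 8.67 and 11.1 CPM in adults and 6.51, 3.57 and 4.76 CPM in P10 (1.06 ± 0.26, edgeR FDR 0.0095). The farthest, 266 kb away (chr15:19013012-19013315), had 9.40, 8.08 and 11.1 CPM in adults and 5.11, 5.56 and 4.60 CPM in P10 (0.90 ± 0.25, edgeR FDR 0.0210). In both the groups did not overlap, and these ACS and the 2 inside the gene just given were called in each of the 6 fits without 1 library. The third, 126 kb away (chr15:19152230-19152791), had 11.9, 7.89 and 11.99 CPM in adults and 8.60, 5.06 and 4.92 CPM in P10. Here P10 replicate 1 lay above Adult replicate 5, and the call (0.76 ± 0.27, edgeR FDR 0.0730) was lost without Adult replicate 4 (0.66), P10 replicate 2 (0.62) or P10 replicate 3 (0.60). A further Up ACS 191 kb inside (0.85 ± 0.30, edgeR FDR 0.0800) lost its call without Adult replicate 4 (0.69), P10 replicate 2 (0.63) or P10 replicate 3 (0.80). Nearest genes at such distances are the assignment of the table, and no contact with the promoter was measured.

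At the *Cadps* start the TSS-class ACS 375 bp inside (chr15:19278956-19279774), the most accessible of the gene, had 47.9, 34.0 and 36.1 CPM in adults and 38.3, 31.1 and 29.1 CPM in P10. The groups overlapped, and the log2 fold change of 0.26 ± 0.18 was not called (edgeR FDR 0.441). The other, 400 bp upstream (chr15:19278181-19278510), had 8.49, 7.30 and 6.19 CPM against 8.46, 6.99 and 6.66 CPM (-0.0039 ± 0.25). Without P10 replicate 1, 10 of the 25 ACS were Up and 0 Down. The 19 ACS not called ranged from -0.80 to 0.76.

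**Figure D3:**
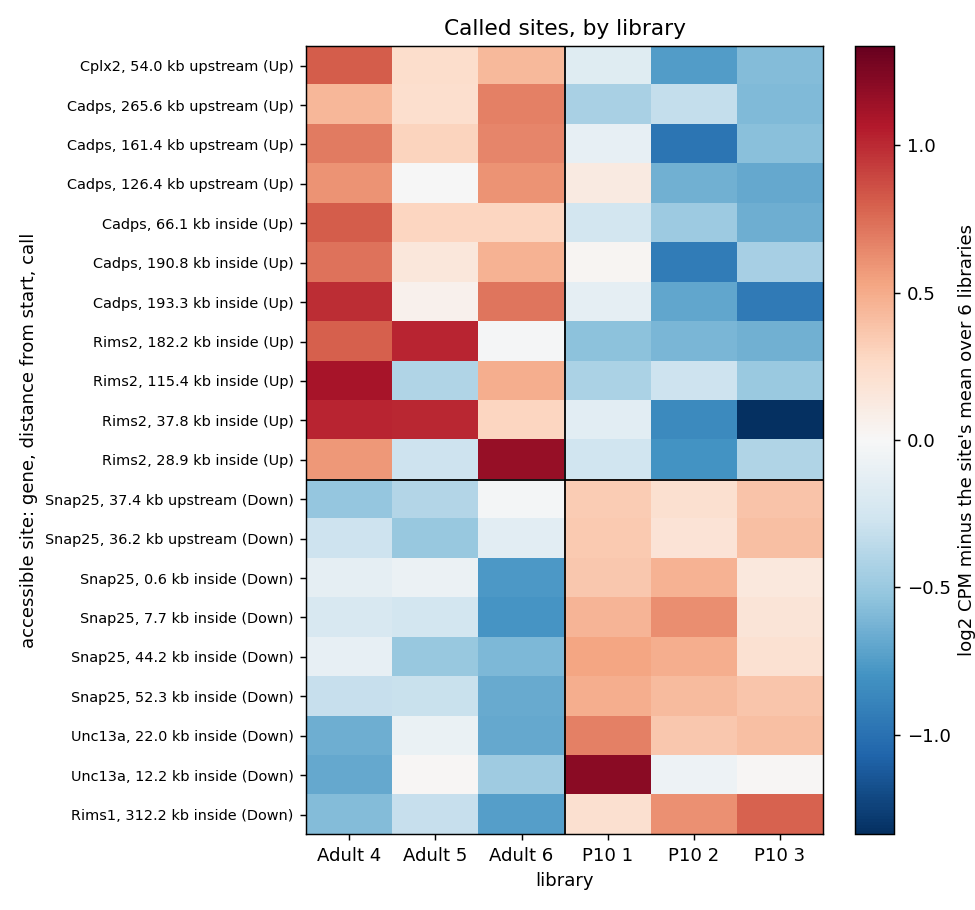
Log2 CPM of each of the 20 called ACS (rows, named by gene and distance from the start) in each library (columns), after subtraction of the mean of that ACS over the 6 libraries. Red is above and blue below the mean. The upper block holds the 11 Up ACS and the lower block the 9 Down ACS, and P10 replicate 1 is nearer to the adults than the other P10 libraries at most *Cadps* ACS and stands above all libraries at the *Unc13a* ACS 12.2 kb inside the gene.

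*Rims2* encodes RIM2, a RIM known to act in insulin secretion. It had 16 ACS on chromosome 7, of which 4 were Up and 0 Down, with the same counts from DESeq2 and limma voom and no ACS lower in adults at an unadjusted edgeR p under 0.05. The smallest FDR was that of an ACS 182 kb inside the gene (chr7:77975113-77975446), with 11.4, 13.2 and 6.45 CPM in adults and 4.46, 4.28 and 4.18 CPM in P10 (1.27 ± 0.27, edgeR FDR 0.00247). The largest log2 fold change of any member was found 37.8 kb inside (chr7:78119493-78119731), with 7.05, 7.01 and 4.25 CPM in adults and 3.16, 1.93 and 1.37 CPM in P10 (1.497 ± 0.33, edgeR FDR 0.00373). Both were without overlap between ages and were called in each of the 6 fits without 1 library.

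The other Up ACS of *Rims2* rested on fewer libraries. The ACS 115 kb inside (chr7:78041899-78042193) had 9.13, 3.21 and 5.93 CPM in adults and 3.16, 3.49 and 3.01 CPM in P10, with Adult replicate 5 inside the P10 range. Its call (0.92 ± 0.32, edgeR FDR 0.0734) was lost without Adult replicate 4 (0.49) or P10 replicate 3 (0.86). The ACS 28.9 kb inside (chr7:78128426-78128763) had 3.34, 1.85 and 5.03 CPM against 1.86, 1.28 and 1.69 CPM, again with Adult replicate 5 within the P10 range. Its call (1.04 ± 0.38, edgeR FDR 0.0889) was lost without Adult replicate 6 (0.68), P10 replicate 2 (0.90) or P10 replicate 3 (1.06). The TSS-class ACS (chr7:78157606-78158816) was the most accessible, with 43.4, 35.9 and 30.4 CPM in adults and 46.0, 33.0 and 34.6 CPM in P10, and overlapped fully (-0.05 ± 0.18, edgeR FDR 0.921). The 12 ACS not called ranged from -0.58 to 0.38.

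*Rims1*, the gene of the related scaffold RIM1, had 4 ACS on chromosome 9, of which 1 was Down and 0 Up, with the same counts from DESeq2 and limma voom and no ACS higher in adults at an unadjusted edgeR p under 0.05. The Down ACS lay 312 kb inside the gene (chr9:27501262-27501995), with 5.15, 6.23 and 4.64 CPM in adults and 8.97, 11.8 and 13.4 CPM in P10. Every P10 library was above every adult one (-1.08 ± 0.25, edgeR FDR 0.00563), and the call was kept in each of the 6 fits without 1 library. The ACS over the start (chr9:27812846-27813499) had 20.4, 15.2 and 20.2 CPM in adults and 18.2, 22.5 and 20.3 CPM in P10, with overlap (-0.13 ± 0.20, edgeR FDR 0.789).

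Counts were also summed over all ACS of a gene, which gives 1 value per gene with less counting error, and were fitted over 14776 genes (10.5% Up and 7.63% Down). *Snap25* had 132, 112 and 128 CPM in adults and 170, 163 and 181 CPM in P10, without overlap, and was Down (-0.47 ± 0.11, edgeR FDR 0.0232) here and in each of the 6 fits without 1 library, where it ranged from -0.52 to -0.40. *Cadps* had 216, 182 and 211 CPM in adults and 183, 140 and 142 CPM in P10, so that P10 replicate 1 reached Adult replicate 5. It was Up (0.39 ± 0.13, edgeR FDR 0.0833), but the call was lost without Adult replicate 4 (0.34), Adult replicate 6 (0.36), P10 replicate 2 (0.32) or P10 replicate 3 (0.33), and without P10 replicate 1 it was 0.51 with an FDR of 0.00898. With total reads as library size its value was -0.48, which is above the median of -0.85 over all genes on that scale.

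None of the other 6 genes was called by the summed counts. *Rims1* had 39.7, 35.0 and 44.3 CPM in adults and 37.3, 54.6 and 56.3 CPM in P10 (-0.32 ± 0.15, edgeR FDR 0.235). P10 replicate 1 lay within the adult range, and without it the gene was Down (-0.50, FDR 0.0153). The value rests on the 2 ACS over 300 kb from the start, and with ACS within 100 kb alone it was -0.04. *Cplx2* had 92.6, 83.1 and 79.9 CPM against 84.4, 68.5 and 65.3 CPM (0.23 ± 0.12, edgeR FDR 0.289) and was Up without P10 replicate 1 (0.34, FDR 0.0678). *Unc13a* had 51.9, 47.6 and 41.4 CPM against 71.5, 41.8 and 42.2 CPM. Its P10 replicate 1 was 1.70 times the mean of the other P10 libraries, which lies above the 95% point of that ratio over all genes (1.44), and *Rims1* at 0.671 lay below the 5% point (0.716). *Rims2* had 130.9, 112.8 and 111.2 CPM against 116.1, 100.7 and 108.3 CPM (0.13 ± 0.11), and 0.05 with ACS within 100 kb alone. *Stx1a* had 23.4, 23.4 and 15.1 CPM in adults and 23.0, 29.2 and 18.8 CPM in P10 (-0.18 ± 0.19). *Vamp2*, from its single ACS, was -0.45 ± 0.34 and was called Down without Adult replicate 4 (-1.01).

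**Figure D4:**
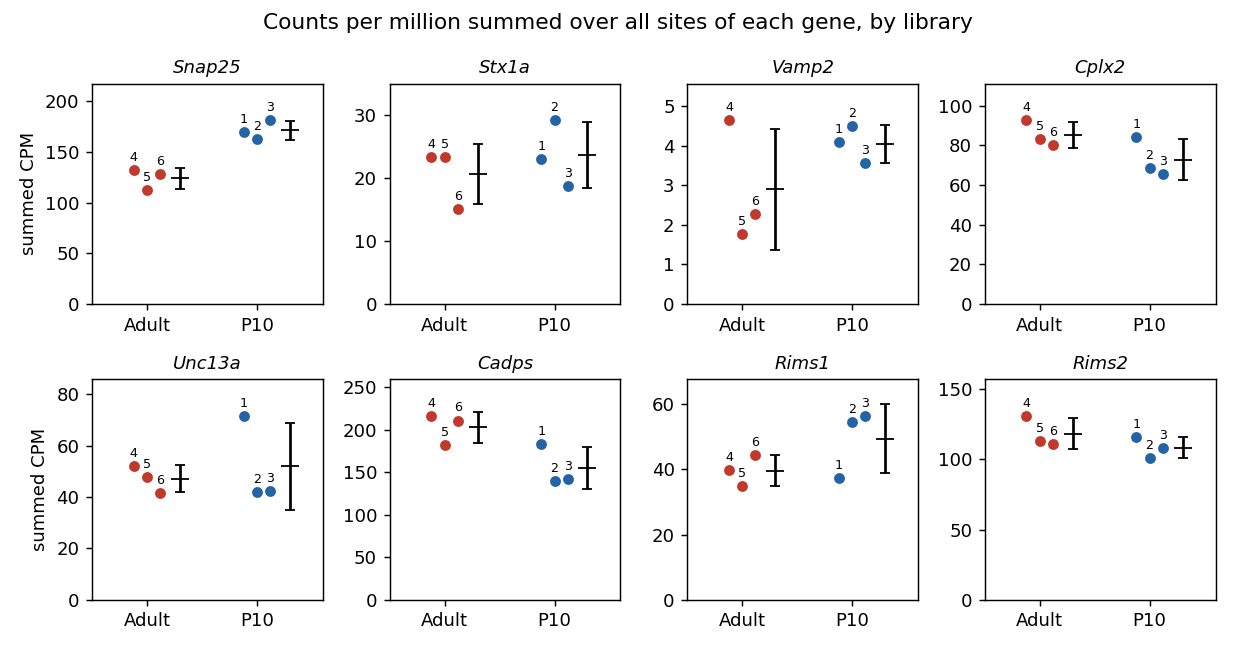
Summed CPM over all ACS of each gene (y axis, from 0) in the 3 Adult (red) and 3 P10 (blue) libraries, with the replicate number above each point and the mean with its SD as a black bar. The Adult points of *Snap25* (112 to 132 CPM) lie below its P10 points (163 to 181 CPM), while those of the other genes overlap.

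Since scaling cancels within a library, genes were also set against each other. The log2 ratio of *Cadps* to *Snap25* summed counts was 0.71, 0.70 and 0.73 in adults and 0.11, -0.22 and -0.35 in P10. Adults lay above P10 without overlap, by 0.87 on average, with little spread among the adults (SD 0.01) and more in P10 (SD 0.24). For *Rims2* to *Snap25* the log2 ratio was -0.01, 0.01 and -0.20 in adults and -0.55, -0.69 and -0.74 in P10, a difference of 0.59, again without overlap. That of *Rims2* to *Rims1* was 1.72, 1.69 and 1.33 against 1.64, 0.88 and 0.94, with overlap through P10 replicate 1. An exact two-sided permutation test gave p = 0.1 for *Cadps* to *Snap25*, 0.1 for *Rims2* to *Snap25* and 0.2 for *Rims2* to *Rims1*. With 3 libraries a group this test cannot go below 0.1. The pairs were chosen after the values were seen, so these p-values are no evidence for a difference.

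The log2 ratio of counts away from the promoter (outside the TSS class) to counts in the TSS class was tested within libraries by limma over 7453 genes. Over all of these the median was 0.16 higher in adults, with 24.3% Up and 4.64% Down. None of the 7 members with both kinds of ACS was called, and 0 had an unadjusted p under 0.05. The ratio of *Cadps* was 1.63, 1.75 and 1.93 in adults and 1.62, 1.41 and 1.51 in P10 (0.26 ± 0.13, limma FDR 0.189). It was called without Adult replicate 4 (0.32) and without P10 replicate 1 (0.31). *Rims2* had 1.16, 1.07 and 1.33 against 0.71, 1.03 and 1.02, without overlap (0.27 ± 0.14, limma FDR 0.1999), where the unadjusted p missed its limit, and was called without Adult replicate 5 (0.33). *Snap25* had 2.79, 2.44 and 2.71 against 2.79, 2.70 and 2.88 (-0.14 ± 0.16), *Rims1* was -0.28 ± 0.18, which turned to 0.39 with ACS within 100 kb alone, and *Cplx2* was 0.36 ± 0.20. *Rims1* was called without P10 replicate 1 (-0.43) and *Cplx2* without Adult replicate 4 (0.54).

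Other genes of regulated exocytosis were taken from a list of 58, of which 53 had 384 ACS. Of these 53 ACS were Up and 28 Down, or 13.8% and 7.29%, against 12.3% and 6.63% of all ACS. Among the 45 TSS-class ACS of the list 3 were called (10.6% of all TSS-class ACS). By role, the granule GTPases and their effectors (Rab3, Rab27 and their binding proteins) had 15 Up and 2 Down of 73, the active zone scaffolds 12 Up and 4 Down of 91, and the other SNAREs 5 Up and 2 Down of 32. Sec1/Munc18 proteins and other syntaxin binders had 15 Up and 11 Down of 106, the other Munc13 genes and *Baiap3* had 2 Up and 2 Down of 20, and the C2-domain sensors Doc2 and rabphilin 1 Up and 1 Down of 21. The SNARE disassembly genes *Nsf*, *Napa*, *Napb* and *Napg* had 3 Up and 6 Down of 34. Of the 7 ACS of the other complexins 0 were called by edgeR, DESeq2 or limma voom, and 0 had an unadjusted edgeR p under 0.05.

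At single ACS of the list the log2 fold change went past the largest of the members (1.497). *Erc2*, an active zone scaffold that binds RIM, had 3 ACS Up and 2 Down of 21. One of them, 91.8 kb inside the gene, had 22.2, 22.1 and 18.9 CPM in adults and 5.35, 4.99 and 5.18 CPM in P10 (2.03 ± 0.22, edgeR FDR 7.99e-07). Another ACS of the same gene, 60.3 kb inside, was Down, with 6.33, 7.40 and 7.35 CPM against 16.4, 11.8 and 10.4 CPM. *Ppfia2*, which encodes the scaffold liprin-alpha-2, had 4 Up of 17, and the strongest, 163 kb upstream, had 39.0, 41.9 and 39.6 CPM in adults and 11.1, 10.6 and 12.2 CPM in P10 (1.83 ± 0.18, edgeR FDR 2.89e-07). *Pclo*, the gene of the large scaffold piccolo, had 3 Up and 2 Down of 20.

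*Rab3c*, a granule GTPase bound by RIM, had 4 Up of 21, with 14.4, 9.74 and 14.8 CPM in adults and 4.42, 4.99 and 4.02 CPM in P10 at an ACS 355 kb downstream (1.54 ± 0.25, edgeR FDR 0.000155). *Myrip*, which ties Rab27 on granules to myosin, had 5 Up of 11. *Stxbp5*, the gene of the SNARE inhibitor tomosyn, had 5 Up and 3 Down of 35, *Stxbp6*, which encodes amisyn, 5 Up and 7 Down of 45, and *Napg* 3 Up and 6 Down of 23. The groups did not overlap at any of the ACS given here for *Erc2*, *Ppfia2* and *Rab3c*.

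Across the 6 libraries the mean of the members' centred summed log2 CPM was 0.14, -0.17 and -0.15 in Adult replicates 4, 5 and 6 and 0.14, 0.06 and -0.03 in P10 replicates 1, 2 and 3. This mean was highest in 1 library of each age and did not divide the ages. Each gene counted equally in it. The single shallow ACS of *Vamp2* (4.65, 1.78 and 2.27 CPM in adults) thus weighed as much as the 25 ACS of *Cadps*. *Snap25* (-0.47) and *Cadps* (0.39) moved in opposite directions, so the mean is not a pattern that the members share. Among 5711 other genes with at least 5 ACS, the profiles most like it were those of *Oat* (Pearson r = 0.993), *Ankrd17* (r = 0.985) and *Gnl3l* (r = 0.980), and 16 genes reached an r of 0.9. These values describe 6 libraries and share their depth and scaling.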

How the data were processed

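ATAC-seq libraries of islet cells from 3 Adult and 3 P10 samples were analysed. Per the study's methods and the labels' processing notes, reads were checked with FastQC 0.11.2, aligned to Rn5 with BWA 0.7.13 and processed with SAMtools 1.3, mitochondrial reads and reads with a MAPQ under 30 were discarded, peaks were called with MACS2 2.1.1 on the concatenated samples of each age and joined, and integrations were counted per library with pyDNase. The authors deposited these counts without normalization, so peaks present in either age were counted in every library. The deposited columns of the authors' own test (fold change, average abundance, p and FDR) were not used. Removal of PCR duplicates is not given in the sources used here, so errors cover counting and the spread between libraries as it stands in the counts.

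The 101941 listed entries hold 101603 distinct ACS, each tested once with no filter by the quasi-likelihood test of edgeR 4.0.16 (R 4.3.3) with TMM factors and age as the only term, with Benjamini-Hochberg adjustment over all ACS. The SE is the log2 fold change divided by the square root of F. Gene sums were made by gene identifier, since 6899 entries carry no symbol. The ratio of non-TSS to TSS counts used limma 3.58.1 with trend, an offset of 0.5 and a mean of at least 20 counts in each kind. With 3 libraries a group an exact permutation test cannot go below 0.1, and it was used only for the ratios between gene pairs. On simulated counts with 200 features changed by 1 on the log2 scale, 57% of ACS, 94% of gene sums and 63% of ratios were called in the right direction. Calls among unchanged features numbered 33, 50 and 25. The changed features had a mean count of at least 20, and the dispersion was fixed. In the data 18.9% of all ACS were called, a far larger share, so these percentages do not give the sensitivity there.

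The genes, lists and motifs were chosen with earlier results of these data known. One of the marker lists is not reported here. By rule, the text names the TSS-class ACS of each member, its most accessible ACS and at most 5 called ACS by smallest p, the listed exocytosis genes with at least 2 called ACS (at most 8 by number of calls), and 3 genes of similar pattern. The sixth called ACS of *Snap25* and of *Cadps* was added after its values were seen. Alternatives were DESeq2 1.42.0, limma voom, column sums, total reads, an expression filter, an FDR under 0.05, ACS within 100 kb, other offsets and promoter definitions, and leaving out each library. Figures were drawn with matplotlib 3.10.9. Coordinates of ACS are those of Rn5 and those of promoters are of GRCr8, and neither was converted into the other.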

Additional observations from a re-analysis of the deposited data

How the results depend on the processing

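The *Snap25* ACS 44.2 kb inside lost its call with DESeq2 (-0.80) and limma voom (-0.76). The other named ACS and the gene sums kept their side of the threshold with these tools and with the expression filter. At an FDR under 0.05, 7 member ACS were Up and 3 Down, and 0 gene sums were Up. Column sums as library size made 2 gene sums Down in place of 1. They gave 11 member ACS Up and 9 Down, with 4 Up and 1 Down in *Rims2*. Over all ACS they gave 10.3% Up and 10.6% Down, so the larger Up share of the background depends on TMM scaling. Total reads as library size left 0 ACS and 0 gene sums Up and made 44 ACS and 8 gene sums Down. There the log2 fold change turned to -0.74 at the *Cplx2* ACS 59.0 kb upstream, to -0.13 at the *Cadps* ACS 126 kb upstream, to -0.60 at the one 375 bp inside, to -0.0225 at the one 191 kb inside, and in the gene sums to -0.63 for *Cplx2*, -0.48 for *Cadps* and -0.71 for *Rims2*, against a median of -0.84 over all ACS and -0.85 over all genes. 9 of the 11 Up ACS kept a positive value.

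Without 1 library the ACS called Up ranged from 8 to 19 and those called Down from 4 to 10, with the highest Up count without P10 replicate 1 and the lowest Down count without Adult replicate 6. Gene sums called Up ranged from 0 to 2 and called Down from 1 to 2. The log2 ratio of counts away from the promoter to promoter counts ranged over these fits from 0.18 to 0.32 in *Cadps*, from 0.27 to 0.54 in *Cplx2*, from -0.43 to -0.14 in *Rims1*, from 0.16 to 0.33 in *Rims2*, from -0.21 to -0.04 in *Snap25*, from -0.32 to 0.09 in *Stx1a* and from -0.21 to 0.06 in *Unc13a*. With ACS within 100 kb alone it turned from -0.28 to 0.39 in *Rims1* and was 0.18 in *Rims2*, and the *Rims1* gene sum moved from -0.32 to -0.04, without a call. No paired analysis was possible because the Adult and P10 libraries came from different animals, single adult males and mixes of pups. Depth limits the 1 ACS of *Vamp2*, with a mean count of 51.7, and other ACS with few integrations. The median of the mean count was 74.7 for the members and 64.8 over all ACS.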
